A study of Mus musculus with 8 samples.

Results

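Multi-site distal regions are stretches of accessible chromatin, away from promoters, in which the binding sequence of AP-1 occurs more than once. They were found by merging the FAIRE-seq peaks of 8 libraries and scanning the mouse genome sequence beneath. A merged region was distal if its midpoint lay more than 2 kb from every annotated transcription start site (TSS), and multi-site if the 500 bp around its midpoint held at least 2 separate copies of TGACTCA or TGAGTCA. Of 37230 merged regions, 25424 were distal (68.3%). Of these, 2476 (9.74%) were multi-site, 9385 held 1 site and 13563 held 0 sites. The 1-site and 0-site distal regions served as the comparison classes. Measured calls and scores played no part in choosing the multi-site regions among the distal ones, although every merged region was by construction called in at least 1 library.

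FAIRE-seq (formaldehyde-assisted isolation of regulatory elements with sequencing) enriches DNA that is not crosslinked to nucleosomes. It had been run on EpH4, a cell line from mouse mammary gland epithelium, and on EpRas, its derivative transformed by H-Ras and labelled as expressing active H-Ras. Cells of each line were cultured for 8 days with TGF-β3 at 1 ng/ml or without it, which gave the 4 groups untreated EpH4, TGF-β-treated EpH4, untreated EpRas and TGF-β-treated EpRas with 2 libraries each. EpH4 cells grew in 10% and EpRas cells in 4% fetal bovine serum, so that serum and the transgene cannot be told apart in a comparison of the lines, and each genotype is 1 cell line. The comparisons asked whether multi-site regions are called differently from other distal regions, and whether this depends on the line or on TGF-β.

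AP-1 is a dimer of basic leucine zipper proteins of the Fos, Jun and ATF families. It binds the near-palindromic sequence shown above, known as the TPA response element (TRE), and is a classical endpoint of Ras and MAP kinase signalling. TGF-β also acts through AP-1, because Smad proteins are recruited to many enhancers together with it, and in epithelial cells AP-1 is known for binding distal enhancers rather than promoters.

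The lists held between 10821 and 27337 peaks per library. The first TGF-β-treated EpRas library had the longest list and the second TGF-β-treated EpH4 library the shortest. Comparisons that depend on list length are therefore also given for the 10821 highest-scored peaks of each library. Read numbers were not part of the lists, so a region absent from a list may be closed or may have missed the authors' limit. Among markers of mammary epithelium, promoter peaks were listed at *Krt8* and *Cldn4* in 5 libraries each, at *Cdh1* in 4, at *Krt18* in 3, at *Esrp1* in 2 and at *Epcam* in 0. Of markers of other cells, *Pdgfra* had a promoter peak in 4 libraries and *Vim* in 1, whereas *Ptprc* (leukocytes) and *Pecam1* (endothelium) had none.

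The multi-site regions were built in different ways, and a few are printed to show this, with AP-1 sites in capitals, from the plus strand of GRCm38.p6 (mm10). The first set consists of regions with the most sites. A 504 bp region 18.6 kb upstream of *Usp7*, which encodes a deubiquitinase, held 6 sites, 5 of them in the stretch shown. The 6 sites stood at steps of 123, 22, 158, 10 and 10 bp. A region in an intron shared by *Oxsr1* and *Slc22a14* held 7 sites, each exactly 40 bp from the next, and one in an intron of *Hfm1* held 5 sites at steps of 26 bp. A region in an *Atxn1* intron held 17 sites, of which 15 are shown, at steps of mostly 21 bp.
Usp7 upstream, chr16:8810735-8811034: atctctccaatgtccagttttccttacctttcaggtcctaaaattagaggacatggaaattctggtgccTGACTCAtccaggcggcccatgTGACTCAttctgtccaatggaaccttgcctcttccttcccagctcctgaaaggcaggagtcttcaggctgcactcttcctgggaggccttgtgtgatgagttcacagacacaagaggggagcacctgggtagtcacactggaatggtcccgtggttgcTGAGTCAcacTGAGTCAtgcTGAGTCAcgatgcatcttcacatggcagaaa
Oxsr1 intron, chr9:119265896-119266182: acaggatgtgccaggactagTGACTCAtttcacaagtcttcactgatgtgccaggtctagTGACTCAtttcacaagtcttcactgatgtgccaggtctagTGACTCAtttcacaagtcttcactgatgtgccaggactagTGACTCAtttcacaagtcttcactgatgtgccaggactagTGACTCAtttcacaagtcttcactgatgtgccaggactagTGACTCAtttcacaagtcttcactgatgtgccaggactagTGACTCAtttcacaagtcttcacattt
Hfm1 intron, chr5:106853382-106853532: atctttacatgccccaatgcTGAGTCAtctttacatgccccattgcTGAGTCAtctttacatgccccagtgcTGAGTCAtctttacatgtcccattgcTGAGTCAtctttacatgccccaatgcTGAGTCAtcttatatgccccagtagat
Atxn1 intron, chr13:45623873-45624172: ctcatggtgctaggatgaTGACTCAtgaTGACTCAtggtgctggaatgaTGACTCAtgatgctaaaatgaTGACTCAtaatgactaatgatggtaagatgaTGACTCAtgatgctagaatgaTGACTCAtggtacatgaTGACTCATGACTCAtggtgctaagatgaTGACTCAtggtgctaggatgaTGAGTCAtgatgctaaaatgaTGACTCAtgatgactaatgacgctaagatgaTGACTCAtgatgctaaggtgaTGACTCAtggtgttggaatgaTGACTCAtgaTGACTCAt

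The *Usp7* region was called in all 8 libraries, with scores between the 85.1 and 99.2 percentile of the list (the percentile of a score is its rank among all peaks of that library, from 0 to 100). The *Oxsr1* array was called in 5 libraries, both untreated EpH4 libraries, the first untreated EpRas library and the pair of TGF-β-treated EpRas libraries, at percentiles of 13.1 to 65.0. The *Hfm1* and *Atxn1* arrays were called in the first TGF-β-treated EpRas library alone, at percentiles 66.2 and 30.3. Another region, in an intron of *Arhgap26*, held 5 sites and was called in 3 EpRas libraries. A high number of sites was thus not always accompanied by calls in many libraries.

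The second set shows regions that differed between lines or treatments or lay at genes of the response to Ras and TGF-β. All of them held 2 sites. *Cdh1* encodes E-cadherin, *Etv4* an ETS transcription factor downstream of Ras, and *Ereg* the EGF receptor ligand epiregulin. *Mtcl1* encodes a microtubule crosslinking protein, *Cwc27* a spliceosomal cyclophilin, *Tpm1* a tropomyosin of actin filaments and *Igfbp7* a secreted binding protein. The calls of these regions are described further on.
Cdh1 intron, chr8:106616117-106616214: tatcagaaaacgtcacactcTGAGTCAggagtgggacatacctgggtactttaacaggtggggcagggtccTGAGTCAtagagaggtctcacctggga
Etv4 downstream, chr11:101768865-101769000: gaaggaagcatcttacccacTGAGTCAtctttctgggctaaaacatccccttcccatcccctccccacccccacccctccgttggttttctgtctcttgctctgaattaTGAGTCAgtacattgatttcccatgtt
Ereg intron, chr5:91083241-91083319: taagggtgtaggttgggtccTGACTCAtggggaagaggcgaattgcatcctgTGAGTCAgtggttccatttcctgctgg
Mtcl1 intron, chr17:66352469-66352594: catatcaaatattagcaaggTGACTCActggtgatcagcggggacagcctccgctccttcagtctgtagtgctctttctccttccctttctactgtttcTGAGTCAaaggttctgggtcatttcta
Cwc27 intron, chr13:104743016-104743092: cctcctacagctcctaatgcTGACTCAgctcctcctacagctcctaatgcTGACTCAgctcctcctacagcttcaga
Tpm1 upstream, chr9:67140635-67140805: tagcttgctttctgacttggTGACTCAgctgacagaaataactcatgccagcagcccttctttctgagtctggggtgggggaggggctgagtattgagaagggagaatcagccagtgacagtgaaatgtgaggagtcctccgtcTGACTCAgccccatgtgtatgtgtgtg
Igfbp7 upstream, chr5:77530773-77530849: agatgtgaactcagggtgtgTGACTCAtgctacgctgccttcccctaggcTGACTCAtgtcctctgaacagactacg
Pop1 downstream, chr15:34571253-34571382: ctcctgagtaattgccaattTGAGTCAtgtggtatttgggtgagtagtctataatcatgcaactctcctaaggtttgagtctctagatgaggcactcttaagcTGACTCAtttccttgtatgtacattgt

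Most multi-site regions, 2191 of 2476 (88.5%), held exactly 2 sites. There were 254 regions with 3 sites, 24 with 4, 4 with 5, and 1 each with 6, 7 and 17, for 5290 sites in all. In 2202 regions (88.9%) at least 2 sites lay within the called region itself, in 265 (10.7%) only 1 did and in 9 (0.363%) none did, the other sites lying in the rest of the 500 bp window. Several AP-1 sites together were more frequent in distal regions than in the other windows examined. They were found in 294 of 11806 promoter regions (2.49%) and in 97 of 24634 control windows (0.394%), which were placed 10 kb downstream of the distal regions where no peak was called. The share of multi-site windows was 24.7-fold higher in distal regions than in control windows, compared with a 4.74-fold higher share of 1-site windows. Whether the first fold exceeds what a higher density of single sites would give was not tested. Repeats made up on average 29.5% of control windows, and 13.8%, 14.0% and 16.9% of multi-site, 1-site and 0-site windows.

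Adjacent sites stood closer together inside multi-site regions than elsewhere in the genome. The median distance from the start of a site to the start of the next was 70 bp over 2814 adjacent pairs in multi-site regions. It was 233 bp over 34035 pairs outside all called regions that would have fitted in the same window. Distances of up to 50 bp made up 37.2% of pairs in multi-site regions and 11.96% elsewhere, and distances of up to 100 bp 64.3% and 23.6%. Since the called regions are narrow, the position of a window on a midpoint by itself affects which distances are seen. Among the 2191 regions with exactly 2 sites, the most frequent distances were 11 bp (41 regions), 10 bp (33 regions) and 51 bp (26 regions). Distances of 10 and 11 bp together accounted for 3.38% of these regions and 0.514% of pairs elsewhere. The distance of 51 bp accounted for 1.19% and 0.176%, that of 25 bp for 1.14% and 0.452%, and that of 14 bp for 1.10% and 0.267%. Distances of 12 bp (1.05% and 0.223%) and 27 bp (1.05% and 0.185%) came next. Among all adjacent pairs, distances of 7 to 15 bp made up 8.03% in multi-site regions and 2.52% elsewhere. The 2 sites of an adjacent pair carried the same central base on the plus strand in 54.4% of pairs.

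The same was seen from the side of the sites. Among unmasked distal sites of the genome (those outside annotated repeats), 20.8% of the 2039 sites with another site within 15 bp lay in a called region (Wilson 95% interval 19.1 to 22.7). The share was 21.9% for sites whose nearest neighbour was 16 to 50 bp away (20.9 to 22.9) and 18.4% at 51 to 100 bp (17.5 to 19.3). It was 7.24% beyond 100 and up to 250 bp and 2.67% for the 155959 sites with no other site within 2000 bp (2.59 to 2.76). Intervals here cover counting error only, and neighbouring sites often share a region, so they are not independent draws. The plot of site spacing shows both views.

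**Figure D1:**
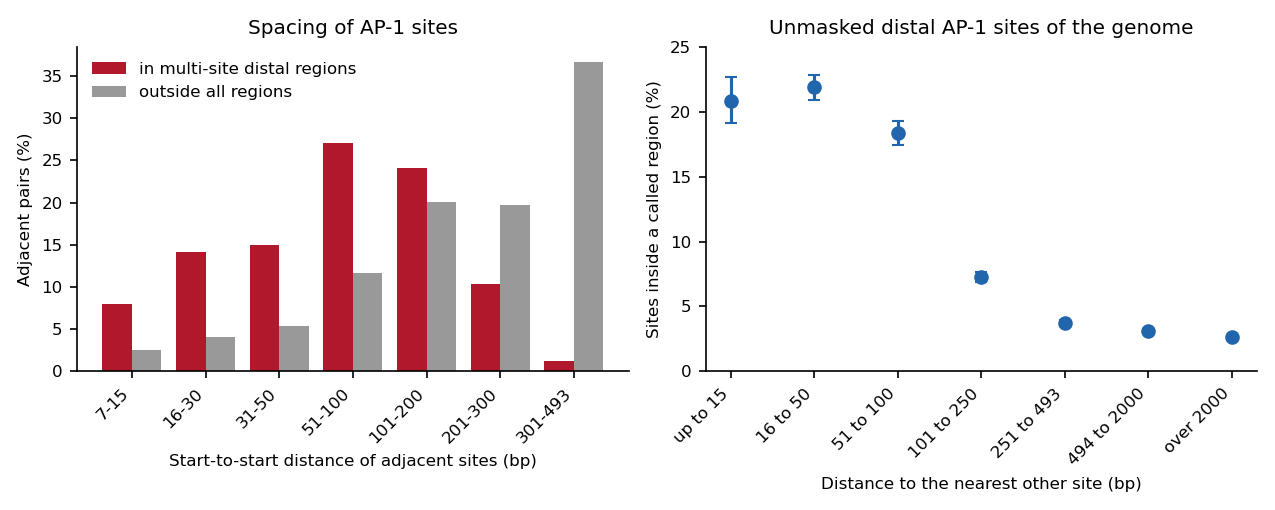
Left, percent of adjacent AP-1 site pairs by start-to-start distance in bp, in multi-site distal regions (red) and outside all called regions (grey). Right, percent of unmasked distal AP-1 sites that lay inside a called region by distance in bp to the nearest other site (points, bars are Wilson 95% intervals), which was 20.8% for sites with a neighbour within 15 bp and 2.67% for those without one within 2000 bp.

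Sites were concentrated near the middle of the regions, with 53.9% of those in multi-site regions within 50 bp of the midpoint, a stretch that makes up 20.2% of the window. The single sites of 1-site regions were nearer still, with 65.8% within 50 bp. Of the sites in multi-site regions, 6.50% lay in soft-masked repeats, against 17.9% of all 433146 sites in the genome. The mask did not cover every repeated unit. In the *Atxn1* and *Oxsr1* arrays and the *Cwc27* region printed above, 0 sites were masked. The share of sites in tandem copies was not counted.

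Multi-site regions were wider than other distal regions, with a median of 318 bp against 288 bp for 1-site and 261 bp for 0-site regions. Base composition was similar. The mean GC content was 45.7%, 45.9% and 45.5%, and the windows held on average 5.41, 5.69 and 6.86 CpG dinucleotides. Their median distance to the nearest TSS was 17.6 kb, compared with 16.8 and 15.5 kb. About as many lay in introns (50.6%) as between genes (47.0%). Another distal region of any class lay within 10 kb of 40.6% of them, compared with 46.5% of 1-site and 44.4% of 0-site regions. Another multi-site region lay within 10 kb of 5.69%, compared with 6.24% of 1-site and 5.04% of 0-site regions. On single chromosomes, multi-site regions made up 8.47% to 11.98% of distal regions, apart from chromosome Y with 0 of 21.

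Short consensus sequences of other factors (either strand, same window) were no more frequent in multi-site than in 0-site regions for any of the 10 searched, apart from a nearly equal share of the FOX sequence TGTTTAC (8.08% and 8.02%). The RUNX sequence TGTGGTT was present in 15.3% of multi-site regions (Wilson 95% interval 14.0 to 16.8), 18.9% of 0-site regions (18.3 to 19.6) and 11.9% of control windows. The TEAD sequence GGAATG was found in 31.1%, 34.7% and 24.6%, and the partial NF1 site TTGGCA in 29.8%, 33.3% and 22.7%. ETS sequences (CGGAAG) were found in 7.79% of multi-site regions, 8.88% of 0-site regions and 6.49% of control windows. For these 4 sequences the share in multi-site regions lay between those in control windows and in 0-site regions. GATA sequences (AGATAA) were found in 22.8%, 23.9% and 26.6%. The full CEBP palindrome TTGCGCAA was present in 1 multi-site region (0.0404%) and in 0.221% of 0-site regions. The CRE sequence TGACGTCA, bound by ATF and CREB dimers, was present in 0.444% and 0.782%. The GRHL palindrome AACCGGTT was found in 0.121% and 0.243%, and the SMAD palindrome GTCTAGAC in 0.363% and 0.494%. Matches that partly overlapped an AP-1 site were counted, and a short consensus misses weaker sites. These shares are descriptions without a test, and no match says only that the letters were not in the window.

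Multi-site regions were called more often than other distal regions in every library. In untreated EpH4 cells, 37.0% and 38.9% of the 2476 multi-site regions were called, giving replicate 1 first. In EpH4 cells given TGF-β the shares were 54.2% and 34.3%. EpRas cells had 49.9% and 43.1% when untreated, and 86.9% and 61.5% with TGF-β. Both TGF-β-treated EpRas libraries were above the other 6, and the replicates of TGF-β-treated EpH4 cells lay on either side of the untreated ones. The corresponding shares of 0-site regions were 26.7% and 28.1%, 40.5% and 22.6%, 36.9% and 28.0%, and 64.5% and 35.1%. On the log2 scale, the ratio of the multi-site to the 0-site share was 0.53 ± 0.14 (SD, n = 8), a 1.45-fold ratio, and it was above 0 in 8 of 8 libraries (exact sign-flip permutation test over libraries, two-sided, p = 0.0078125, the smallest it can give, also after adjustment over 4 class comparisons). Relative to 1-site regions the log2 ratio was 0.31 ± 0.082 (SD, n = 8), a 1.24-fold ratio, again above 0 in 8 of 8 libraries (same exact test, p = 0.0078125). The libraries share regions and cell lines, and the test covers only the spread between them. Region width moved with the number of sites, and its part in these ratios was not settled. Leaving out regions over 500 bp left log2 ratios of 0.51 and 0.27. Upper quartiles of width were 393, 353 and 330 bp for multi-site, 1-site and 0-site regions, so this limit kept most regions. It could not separate width from the number of sites.

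**Figure D2:**
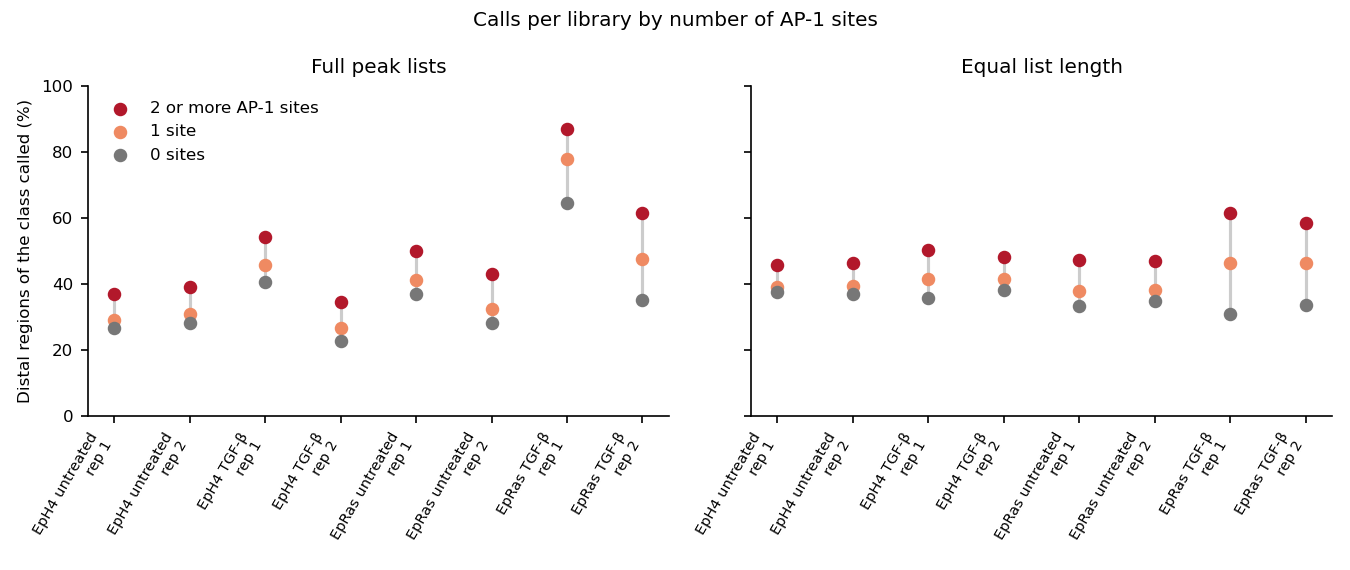
Percent of multi-site (red), 1-site (orange) and 0-site (grey) distal regions called in each of the 8 libraries, for the full peak lists (left) and for the 10821 highest-scored peaks of each library (right). In each library the multi-site share was the highest and the 0-site share the lowest. With equal lists the multi-site shares of the 2 TGF-β-treated EpRas libraries (61.5% and 58.4%) were above the other 6 (45.6% to 50.1%). Their 1-site shares (46.4% and 46.3%) were above the other 6 as well (37.8% to 41.6%).

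Their peaks also had higher scores. The median percentile of multi-site peaks within a list was between 52.5 and 61.3 over the 8 libraries, that of 1-site peaks between 45.4 and 49.2, and that of 0-site peaks between 38.7 and 44.6. The ranges did not overlap. Multi-site peaks were 14.6 ± 3.93 percentile points above 0-site peaks (SD, n = 8, exact sign-flip permutation test, two-sided, p = 0.0078125) and 9.14 ± 2.07 points above 1-site peaks (same exact test, p = 0.0078125). The largest difference from 0-site peaks, 22.6 points, was in the first TGF-β-treated EpRas library, which also had the longest list. The smallest, 10.7 points, was in the second untreated EpRas library.

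Calls were shared among libraries more widely when there were more sites. Of the 2476 multi-site regions, 400 (16.2%, Wilson 95% interval 14.8 to 17.7) were called in all 8 libraries, compared with 8.87% of 1-site and 6.71% of 0-site regions and 8.43% of all distal regions. At the other end, 551 multi-site regions (22.3%) were called in 1 library only, compared with 32.2% of 1-site, 40.7% of 0-site and 35.8% of all distal regions. Of these 551, 361 (65.5%) came from the first TGF-β-treated EpRas library, which also held 50.4% of all distal regions called in 1 library. Multi-site regions made up 6.06% of the distal regions found in 1 library and 18.7% of those found in 8. By number of sites, the share called in all 8 libraries was 15.3% with 2 sites (13.8 to 16.9), 22.8% with 3 (18.1 to 28.4) and 22.6% for the 31 regions with 4 or more (11.4 to 39.8). The interval for 4 or more sites included the values for 2 and 3. Median widths were 317, 341 and 354 bp in the same order.

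**Figure D3:**
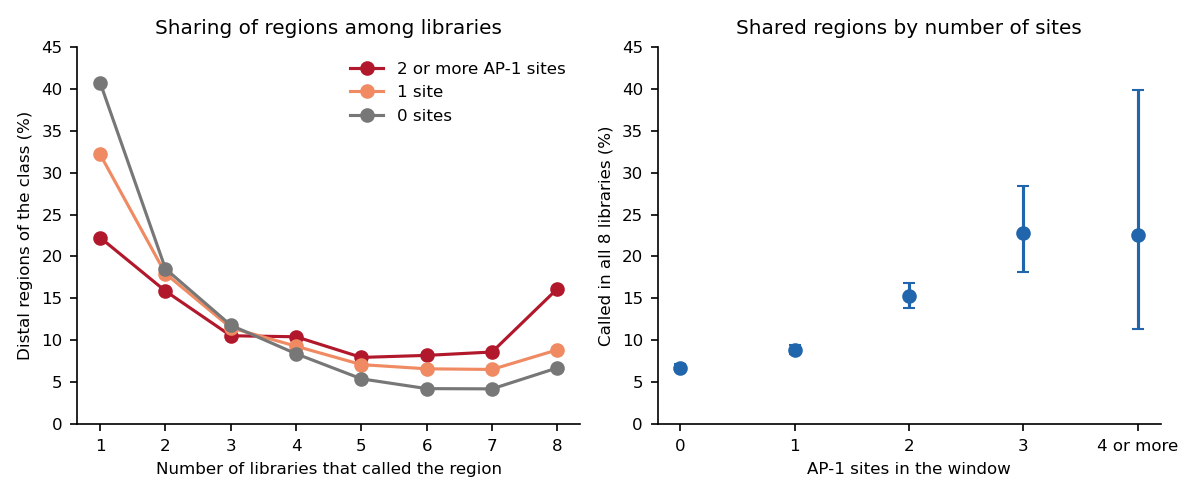
Left, percent of the multi-site (red), 1-site (orange) and 0-site (grey) distal regions by the number of libraries (1 to 8) that called them. Right, percent called in all 8 libraries by number of AP-1 sites, with Wilson 95% intervals, from 6.71% with 0 sites to 22.8% with 3 sites.

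Within a group, replicates shared more of the multi-site regions than of the other classes. Of the multi-site regions called in either replicate, both replicates called 59.7% in untreated EpH4, 55.8% in TGF-β-treated EpH4, 64.5% in untreated EpRas and 64.6% in TGF-β-treated EpRas cells. For 0-site regions the values were 44.7%, 38.8%, 41.8% and 41.5%. Among regions shared by all 8 libraries, the highest scores belonged to a 1426 bp region in an intron of *Def8*, nearest to the TSS of *Tubb3* (percentiles 99.3 to 99.9), a 4-site region between genes near *Cdc5l* (91.9 to 99.5) and a 3-site region in an intron of *Tango6* (90.6 to 99.1).

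With the full lists, no difference in the preference for multi-site regions between the lines or with TGF-β exceeded the spread between libraries. The log2 ratio to 0-site regions was 0.57 ± 0.18 in EpRas and 0.49 ± 0.079 in EpH4 libraries (SD, n = 4 each), and differed by 0.081 (p = 0.571 in a two-sided exact permutation test and 0.778 after adjustment over 6 contrasts). It was 0.57 ± 0.18 with TGF-β and 0.50 ± 0.082 without (SD, n = 4 each), which differ by 0.067 (exact permutation test, p = 0.714, adjusted p = 0.778). The TGF-β effect was 0.092 in EpRas and 0.041 in EpH4 cells and the difference between them was 0.051 (exact permutation of line labels within treatments, p = 0.722, adjusted p = 0.778). Relative to 1-site regions the 3 contrasts were -0.021 for the lines, -0.058 for TGF-β and -0.036 for the difference of TGF-β effects (exact permutation tests, p = 0.771, 0.371 and 0.778, each 0.778 after adjustment). Within a line, 2 libraries against 2 cannot give an exact p below 0.333. The permutation for the difference of TGF-β effects cannot give one below 0.0556. It could therefore not fall below 0.05 whatever the data, and these 2 contrasts decide nothing.

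List length mattered for these contrasts. A ratio of shares is bounded when a list is so long that most regions are called, as in the first TGF-β-treated EpRas library with 86.9% of multi-site regions. With 10821 peaks per library, 1765 multi-site regions remained. Of these, 45.6% and 46.3% were called in untreated EpH4 cells and 50.1% and 48.0% in TGF-β-treated EpH4 cells. Untreated EpRas libraries had shares of 47.4% and 46.9%, whereas those given TGF-β had 61.5% and 58.4%. The shares of 1-site regions were also highest in TGF-β-treated EpRas cells, at 46.4% and 46.3%, against 37.8% to 41.6% in the other 6 libraries. Those of 0-site regions were 30.8% and 33.5%, against 33.2% to 38.2%. The log2 ratio to 1-site regions was then between 0.30 and 0.41 in the 4 EpRas libraries and between 0.21 and 0.27 in the 4 EpH4 libraries, without overlap. The difference of 0.10 had the opposite sign to that from the full lists (p = 0.0286 in a two-sided exact permutation test, the smallest that 4 against 4 can give and not adjusted). The log2 ratio to 0-site regions was 0.33 higher in EpRas libraries (exact permutation test, p = 0.0571), with values of 1.00 and 0.80 in TGF-β-treated EpRas cells and 0.28 to 0.51 in the other 6 libraries. The corresponding TGF-β difference was 0.27 (exact permutation test, p = 0.171). Multi-site regions made up 17.1% and 15.8% of the distal regions called in TGF-β-treated EpRas cells and 13.0% to 14.5% in the other 6 libraries.

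Regions that separated the lines were those called in all 4 libraries of one line and in none of the other. Of the 2476 multi-site regions, 85 (3.43%) were called in all EpRas and no EpH4 libraries, compared with 2.72% of 1-site, 1.70% of 0-site and 2.24% of all distal regions. The reverse pattern was found for 20 multi-site regions (0.808%), compared with 0.831%, 0.914% and 0.873%. With equal lists, 40 multi-site regions were EpRas-only (2.27%, compared with 1.59% of 1-site, 1.01% of 0-site and 1.37% of all distal regions). There were 38 EpH4-only regions (2.15%, compared with 1.86%, 1.79% and 1.86%). The excess of EpRas-only over EpH4-only multi-site regions was thus large with the full lists and nearly absent with equal lists. The EpRas-only share was above the background with both sets of lists, for multi-site and for 1-site regions. With equal lists the EpH4-only share of multi-site regions was above it too. Without the second untreated EpRas library, the number of multi-site regions that separated the lines was 176 in place of 105.

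The EpRas-only region with the highest scores was the intronic *Mtcl1* region, at percentiles 70.6 and 95.8 in untreated and 96.6 and 97.9 in TGF-β-treated EpRas libraries. A region in an intron of *Gabbr2*, nearest to *Tbc1d2*, followed a similar course, with 60.8, 96.2, 96.7 and 92.1. The intronic *Cwc27* region stood out in the reverse pattern, at percentiles 93.0 and 92.5 in untreated and 97.3 and 93.7 in TGF-β-treated EpH4 libraries and without a peak in any EpRas library. Its 2 sites lay in copies of a 30 bp unit, as the printed sequence shows. EpH4-only regions 4.27 kb upstream of *Fam83c* and 10.2 kb downstream of *Gmnn*, which encodes the replication inhibitor geminin, had percentiles of 61.2 to 90.0 and 57.6 to 93.0.

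Regions that separated the treatments were rare. Of the multi-site regions, 19 (0.767%) were called in all 4 TGF-β-treated and no untreated libraries, compared with 0.405% of 1-site, 0.302% of 0-site and 0.385% of all distal regions. The reverse was found for 0 of 2476 multi-site regions (Wilson 95% interval up to 0.155%), with a background of 0.0157% of all distal regions. With equal lists, 7 multi-site regions (0.397%) were TGF-β-only, compared with 0.431% of 1-site and 0.316% of all distal regions, and 0 had the reverse pattern (background 0.120%). The larger multi-site share seen with the full lists was thus near the background here. Without the second TGF-β-treated EpH4 library, 55 regions separated the treatments. The highest-scored TGF-β-only region lay 91.3 kb upstream of *Tpm1*, with percentiles of 41.7 and 25.6 in EpH4 and 86.4 and 82.6 in EpRas cells. One in an intron of *Hydin* had percentiles of 32.7 to 81.7.

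Within EpRas cells, 309 multi-site regions (12.5%) were called in both TGF-β-treated and neither untreated library, compared with 11.1% of 1-site, 7.29% of 0-site and 9.20% of all distal regions. Only 7 (0.283%) had the reverse pattern, compared with 0.618%, 1.16% and 0.877%. Within EpH4 cells, 102 (4.12%) were called with TGF-β only, compared with a background of 3.44%, and 34 (1.37%) without TGF-β only, compared with 1.57%. With equal lists, 115 multi-site regions had the first pattern in EpRas cells (6.52%, compared with 5.15% of all distal regions) and 33 the reverse (1.87%, compared with 2.76%). In EpH4 cells the numbers were 70 (3.97%, background 3.76%) and 43 (2.44%, background 3.13%). The 6.52% in EpRas cells stood beside 6.49% of 1-site and 3.84% of 0-site regions, so that the values for 1 site and for several sites were nearly the same. The plot of call patterns gives both sets of lists.

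**Figure D4:**
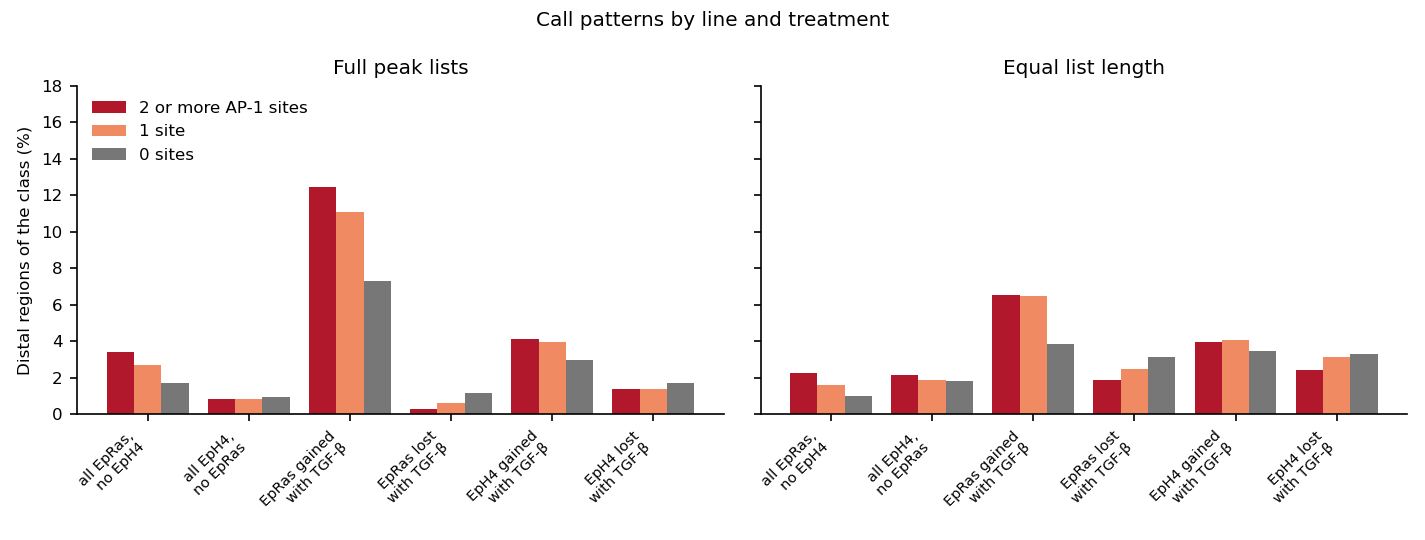
Percent of multi-site (red), 1-site (orange) and 0-site (grey) distal regions with each call pattern by line and treatment, for full lists (left) and for 10821 peaks per library (right). Gained means called in both TGF-β-treated and neither untreated library of the line, lost the reverse. The multi-site share gained in EpRas cells was 12.5% with full lists and 6.52% with equal lists.

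Calls limited to 1 group were most frequent in TGF-β-treated EpRas cells, whose lists held 27337 and 16833 peaks. The longest lists of other groups held 17927 and 17210. In TGF-β-treated EpRas cells, 174 multi-site regions (7.03%) were called in both replicates and in no other library. The shares were 6.63% of 1-site, 4.08% of 0-site and 5.31% of all distal regions. The other groups had 3 such regions in untreated EpRas (0.121%, background 0.441%), 18 in TGF-β-treated EpH4 (0.727%, background 1.05%) and 3 in untreated EpH4 cells (0.121%, background 0.468%). With equal lists, TGF-β-treated EpRas cells had 56 such regions (3.17%), compared with 3.25% of 1-site, 1.83% of 0-site and 2.52% of all distal regions. Untreated EpRas cells had 11 (0.623%, background 1.03%), TGF-β-treated EpH4 cells 22 (1.25%, background 1.62%) and untreated EpH4 cells 9 (0.510%, background 1.39%). The multi-site and 1-site shares in TGF-β-treated EpRas cells were thus close with both sets of lists. The highest-scored in TGF-β-treated EpRas cells lay 76.0 kb downstream of the TSS of *Pop1*, at percentiles 79.3 and 88.6. In TGF-β-treated EpH4 cells it lay 122.8 kb upstream of *Igfbp7*, at percentiles 53.7 and 94.8, and a 2-site region in an intron of *Runx1*, which encodes a transcription factor of mammary epithelium, had 32.2 and 72.2.

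Single regions differed in their calls with TGF-β within a line. An intronic region of *Itgb5*, which encodes an integrin subunit of the vitronectin receptor, was called in all 4 EpH4 libraries (percentiles 65.4 to 90.1) and in both untreated EpRas libraries (41.5 and 38.7), but in neither TGF-β-treated EpRas library. Conversely, an intronic region of *Pdlim4*, which encodes an actin-associated protein, was called in untreated EpH4 cells (50.3 and 73.2) and in all EpRas libraries (48.2 to 96.8), but in neither TGF-β-treated EpH4 library. A region 43.3 kb upstream of *Amotl2*, a gene of the Hippo pathway, was called in both TGF-β-treated EpH4 libraries (72.4 and 80.1) and in the first TGF-β-treated EpRas library (78.3). These are single regions chosen by score within a pattern, and no difference was tested for them.

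At genes of AP-1 itself, 3 of 25 distal regions were multi-site, counted over 10 genes with 20 kb on each side. This and the counts of the following gene lists stand beside 9.74% of all distal regions. The *Fosb* region, 6.86 kb upstream of a gene for a Fos family subunit, was called in 7 libraries. Its percentiles were 46.5 in the first untreated EpH4 library, 60.8 and 45.9 in TGF-β-treated EpH4, 87.3 and 85.3 in EpRas cells without and 80.5 and 51.3 with TGF-β. The values of 3 EpRas libraries were above all those of EpH4 libraries. The *Fosl1* and *Junb* loci each had a weak region, called in 1 and 2 libraries at percentiles of 14.5 or less.

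Among 13 genes for extracellular proteases and their inhibitors, 3 of 34 distal regions were multi-site. The region 13.9 kb upstream of *Mmp13*, which encodes collagenase 3, was called in every library except the second TGF-β-treated EpRas library. Its percentiles were 14.2 and 22.7 in untreated EpH4, 71.6 and 41.0 in TGF-β-treated EpH4, 41.9 and 17.1 in untreated EpRas and 75.9 in the first TGF-β-treated EpRas library. The replicates of TGF-β-treated EpRas cells thus differed at this site. The *Mmp10* region was called in the first TGF-β-treated EpRas library only.

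Among 11 genes of epithelial-mesenchymal transition (EMT), 2 of 26 distal regions were multi-site. The intronic *Cdh1* region, 12.8 kb downstream of the TSS and printed above, was called in all 4 EpH4 and no EpRas libraries. Its percentiles were 14.8 and 74.0 in untreated and 74.4 and 79.1 in TGF-β-treated EpH4 cells, so that TGF-β was not accompanied by loss of the call in EpH4 cells. The intronic region of *Zeb2*, which encodes a repressor of *Cdh1*, was called in 7 libraries. It had percentiles of 24.3 in the first untreated EpH4 library, 50.6 and 83.2 in TGF-β-treated EpH4, 45.8 and 76.2 in EpRas cells without and 93.6 and 72.4 with TGF-β, and the groups overlapped.

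Of the EGF family, 2 of 18 distal regions were multi-site. The intronic *Ereg* region was called in all 8 libraries, with percentiles of 72.2 and 85.8 in untreated EpH4, 55.1 and 10.7 in TGF-β-treated EpH4, 29.3 and 15.0 in EpRas cells without and 21.5 and 86.1 with TGF-β. Replicates of both treated groups were far apart. The *Tgfa* region was called in 2 libraries. Of 8 genes of MAP kinase feedback and ETS factors, *Etv4* alone had a multi-site region, 1 of 11 distal regions. Its calls came from the 2 TGF-β-treated EpRas libraries alone, at percentiles 38.7 and 43.0.

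At 10 adhesion genes, 4 of 57 distal regions were multi-site. The intronic *Itga6* region (integrin α6, a laminin receptor subunit) was called in both untreated EpRas libraries and the first treated one (percentiles 52.2, 83.1 and 83.4) and in no EpH4 library. The *Itga2* region was called in all 4 EpH4 libraries and 1 EpRas library, and the *Itga5* region in 1 library. At 9 genes of the TGF-β pathway 0 of 28 distal regions were multi-site, and at 4 cell cycle genes 0 of 5. The map of scores at these loci shows the values by library. Few regions stand behind each list, so that its share can hardly be set apart from the 9.74% of all distal regions, and these counts carry no test.

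**Figure D5:**
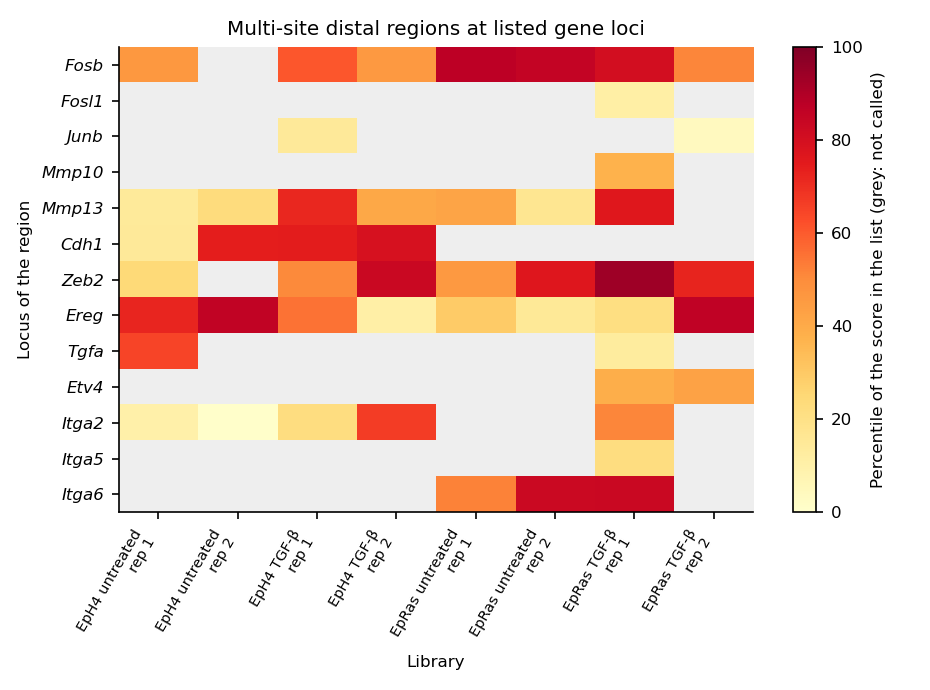
Percentile of the peak score within each library's list (colour, 0 to 100, grey where no peak was called) for the multi-site distal region at 13 of the listed gene loci (rows) in the 8 libraries (columns). The *Cdh1* region was called in the 4 EpH4 libraries only, and the *Etv4* region in the 2 TGF-β-treated EpRas libraries only.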

How the data were processed

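FAIRE-seq peak lists of 8 libraries were used, grouped by the sample labels. The study describes its replicates as biological, and p-values measure the spread between libraries only. According to the study's methods and the submitters' processing notes, the authors trimmed the reads, mapped them to mm10 with Bowtie2 and called peaks per library with MACS2 2.0.9 at a fixed q-value limit. The deposited score in the lists has no stated meaning, and it was ranked within lists. The alternative with higher-scored peaks cut it at the median over all peaks (15.51), which takes scores as comparable between libraries. The sources do not state if peaks were called against a control or what was done with duplicate reads. Lists hold no read counts, so depth was unknown. The 129466 peaks were merged at a minimum overlap of 1 bp, and a region was called in a library if a peak overlapped it. Sequence was GRCm38.p6, with GENCODE vM21 basic annotation (77198 TSS positions). Control windows held at most 50% undetermined bases.

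Tests were exact permutations over libraries (70 assignments for 4 against 4, 36 for the difference of TGF-β effects, 256 sign flips), adjusted by Benjamini-Hochberg, in Python 3.11.15 with NumPy 2.4.6 and SciPy 1.17.1. The permutation of 4 against 4 was tested on simulated data, and the sign flip and the adjustment on fixed values. The permutation for the difference of TGF-β effects was not tested in this way. The named regions were the 5 with the most sites, the 3 highest-scored of each call pattern and those at listed gene loci. The members and lists were chosen with earlier results of these data known. The printed *Cdh1*, *Ereg* and *Etv4* sequences were chosen after their values were seen. Some regions that these rules name are not reported here. Replicate numbers did not pair the libraries. Alternatives included equal lists, other windows, distances, motifs and widths, and leaving out each library.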

Additional observations from a re-analysis of the deposited data

How the results depend on the processing

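The 4 comparisons between region classes kept their direction and their side of 0.05 under every alternative that gave a value, including each left-out library. The log2 ratio to 0-site regions was 0.48 to 0.52 and that to 1-site regions 0.26 to 0.31 with 1 library left out. None of the contrasts between groups passed the threshold with full lists. The line contrast for the ratio to 0-site regions kept its sign under every alternative. Each of the other contrasts changed sign under some alternative, and the cause was not tested unless given. Contrasts of TGF-β effects could not pass the threshold, since their smallest possible exact permutation p is 0.0556. For the ratio to 0-site regions, the line contrast was 0.53 as an odds ratio (exact permutation p = 0.0857) and 0.00023 with replicate 2 of TGF-β-treated EpRas cells left out. The TGF-β contrast was -0.052 with at least 3 sites, 0.49 as an odds ratio and between -0.016 and 0.12 with 1 library left out. The contrast of TGF-β effects was 0.73 as an odds ratio and ranged from -0.13 to 0.24 with 1 library left out. For the ratio to 1-site regions, the line contrast was 0.10 with equal lists (exact permutation p = 0.0286), 0.0055 for regions up to 500 bp, 0.21 as an odds ratio and between -0.058 and 0.026 with 1 library left out. The TGF-β contrast was 0.034 with equal lists and 0.14 as an odds ratio. The difference of TGF-β effects was 0.051 with equal lists, 0.025 with a 200 bp window, 0.058 with any central base, 0.060 with at least 3 sites, 0.0052 for regions up to 500 bp, 0.30 as an odds ratio and between -0.14 and 0.074 with 1 library left out.

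The 105 regions that separated the lines became 52 with higher-scored peaks only, 61 with the 200 bp window, 168 with any central base, 10 with at least 3 sites and 115 to 176 with 1 library left out. The 19 that separated the treatments became 7 with equal lists, 10 with higher-scored peaks, 11 with the 200 bp window, 1 with at least 3 sites and 21 to 55 with 1 library left out. A stricter site rule leaves fewer regions, and a missing library loosens the pattern, by construction. The cause of the other differences was not tested.

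Same-numbered libraries did not deviate together (correlations -0.068 to 0.0036). With a replicate block the line contrast for the ratio to 0-site regions was 0.081 (exact permutation p = 0.375). The smallest p possible with a block is 0.125, so that no contrast could pass the threshold there. A planned stricter overlap could not change a value, since every peak lies within its merged region. Unmerged lists gave only contrasts, since they have no common set of regions. The odds ratio, a peak over at least 50% of the region and sites inside the region itself were chosen after seeing the data. Without read counts, the depth behind each missing call is unknown, and intervals of shares do not cover the spread between libraries.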
